A study of Mus musculus with 18 samples.

Results

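RNA polymerase II (Pol II) occupancy was compared directly between hearts of 2 knockout genotypes, *Trdn-as* KO and *Mettl3* KO, with WT libraries printed beside them as a point of reference. The comparison used the 2 Pol II libraries of each knockout and the autosomal regions of a common peak set, 99188 of 101256 regions in all. Of these, 51806 reached a value of 10 in 2 or more of the 6 Pol II libraries and were tested. *Trdn-as* KO mice (genotype label trdn-as KO) carry a polyadenylation signal in the first exon of *Trdn-as*, inserted in embryonic stem cells, so the allele is present in every cell, and the line was backcrossed to C57BL/6. *Mettl3* KO mice (Mettl3lox/lox:alphaMHC-MerCreMerpos) carry floxed *Mettl3* alleles in all cells and a tamoxifen-activated Cre under the promoter of *Myh6*, so that after tamoxifen only cardiomyocytes lose METTL3, whereas all other cells of the ventricle keep it. The study injected both the Cre-carrying mice and floxed controls without Cre with tamoxifen. The labels call the controls of these libraries only WT, and whether they were such injected mice is not given in the sources used here. For *Trdn-as* KO mice the study reports neither tamoxifen nor Cre. Between the knockouts, tamoxifen and Cre therefore cannot be told apart from the loss of *Mettl3*. Chromatin came from frozen ventricles of adult hearts, with further libraries for CTCF and 1 IgG library per genotype. The study describes a ChIP preparation from the ventricles of 2 adult hearts, with the sheared chromatin pooled. The labels do not say that the 2 libraries of a genotype came from separate animals. The p-values thus measure the spread between libraries, which may be technical.

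Pol II transcribes protein-coding genes and many long non-coding RNAs, and in ChIP-seq it accumulates at promoters and along strongly transcribed genes. *Trdn-as*, annotated as *D830005E20Rik*, is an antisense RNA transcribed from within *Trdn*, the gene of the calcium release unit protein triadin. METTL3 is the catalytic subunit of the nuclear complex that places N6-methyladenosine on RNA.

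All values are read counts per peak divided by a size factor of the library by the authors, called normalized read counts here. *Trdn-as* KO replicate 2 stood apart. It held 1987561 estimated reads in peaks, against 3209026 to 4293229 in the other 3 knockout libraries. These were 18.6% of its 10682858 uniquely mapped reads, against 35.5% to 42.6% in the other Pol II libraries. The other 3 knockout libraries had 7540239 to 12080914 uniquely mapped reads. Its normalized read counts were lower at high peaks, by a median of 0.32 on the log2 scale against replicate 1 in the top eighth of peaks by level. The median absolute log2 difference between replicates was 0.46 in *Trdn-as* KO, 0.33 in *Mettl3* KO and 0.29 in WT. The 6 regions on the Y chromosome summed to 0 in both *Trdn-as* KO libraries, to 223 and 239 in *Mettl3* KO and to 279 and 326 in WT. Peaks annotated to *Xist*, on the X chromosome, summed to 146 and 93, 7 and 6, and 4 and 5 in the same order. Sex and genotype therefore cannot be told apart, also where WT lies with *Mettl3* KO and *Trdn-as* KO differs from both. Differences are given as *Trdn-as* KO minus *Mettl3* KO on the log2(value + 1) scale with the standard error of limma, which was fitted over all 6 Pol II libraries, and adjusted p-values are Benjamini-Hochberg values from limma over all tested peaks. This scale understates the change of low peaks.

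Between the knockouts, 765 autosomal peaks differed at an adjusted p below 0.05 (1.48% of those tested), of which 596 were lower in *Trdn-as* KO (1.15%) and 169 were higher (0.326%). Of the 765, 38 reached the minimum for testing only through the knockout where they were high, 21 among the lower and 17 among the higher peaks. For these 38 a difference was built into their being tested. The split of directions depended on the scaling of the libraries. With uniquely mapped reads as library size, 201 peaks were lower and 11 higher. With a trimmed mean of M values (TMM) over the Pol II peaks, 649 were lower and 752 higher, and with cyclic loess 646 were lower and 892 higher. The median difference of all tested peaks was -0.16 with the deposited scaling, -0.59 with uniquely mapped reads, 0.03 with TMM and -0.01 with cyclic loess. None of the 765 peaks changed direction under any alternative tried, and 163 were called under all 3 other scalings, 152 of them lower and 11 higher in *Trdn-as* KO. These 163 include some of the 38 peaks named above, such as those at *Lefty1* and inside *Nxpe4* and *Esr1*. Without *Trdn-as* KO replicate 2, 94 of the 765 peaks passed, and without *Mettl3* KO replicate 1 or 2 the numbers were 21 and 9. Without *Trdn-as* KO replicate 1, 680 of the 765 passed, among 9357 calls in all, 9106 of them lower and 251 higher. All 4 of these fits called 8 of the 765, each lower in *Trdn-as* KO, namely the *Trdn-as* promoter peak and the peaks described further on at *Hist1h2al*, *Gm11942* and *Lmo7* and at positions with no annotated gene on chromosomes 2, 4, 13 and 18. Every other call was lost without at least 1 library.

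**Figure D1:**
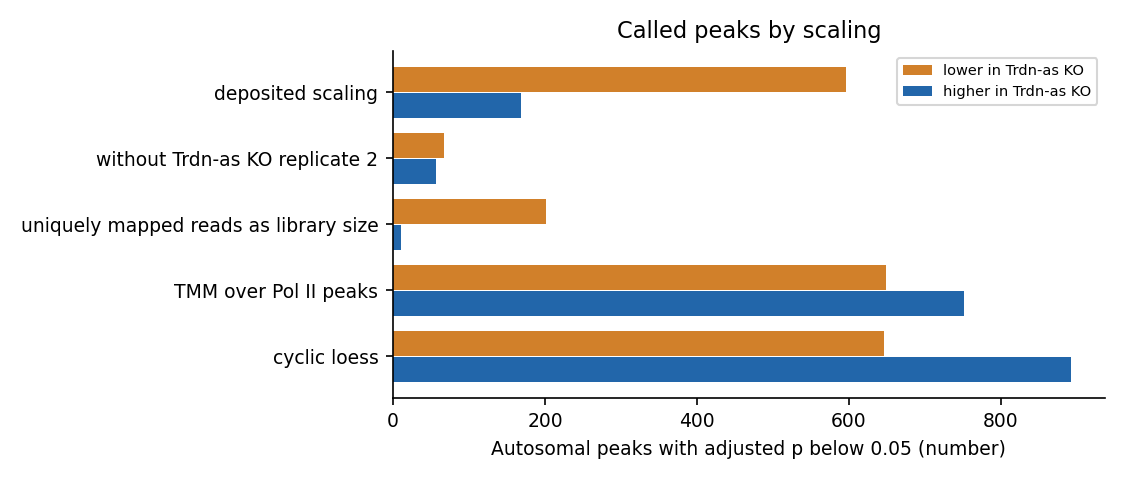
Number of autosomal peaks with an adjusted p below 0.05 that were lower (orange) or higher (blue) in *Trdn-as* KO relative to *Mettl3* KO, with the deposited scaling, 3 other scalings and without *Trdn-as* KO replicate 2. With the deposited scaling 596 peaks were lower and 169 higher, and with cyclic loess 646 were lower and 892 higher.

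Promoter peaks were those that the authors annotated to a gene promoter, 5000 nt to either side of a transcription start. They made up 394 of the 765 (1.61% of promoter peaks tested), 197 lay inside genes (1.27%) and 174 elsewhere (1.48%). Some promoter peaks were long and reached beyond this window, so their counts are not those of the promoter alone. Those of *Myh6*, *Myh7* and *Dbp* spanned 32955, 20606 and 10079 nt, and the centre of the *Myh6* peak lay 5958 nt from the start. Of the 765 peaks, 550 differed by at least 1 on the log2 scale, 402 of them lower and 148 higher in *Trdn-as* KO. The mean of the WT libraries lay between the means of both knockouts at 593 peaks, beyond *Trdn-as* KO at 129 and beyond *Mettl3* KO at 43. CTCF libraries of the same genotypes were tested at 624 of the 765 peaks and differed between the knockouts at 58 of them, 9.29% against 1.2% of all autosomal peaks tested for CTCF. All 58 had the direction of Pol II, but 10 of them reached the minimum for CTCF testing only through the knockout where Pol II was higher.

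**Figure D2:**
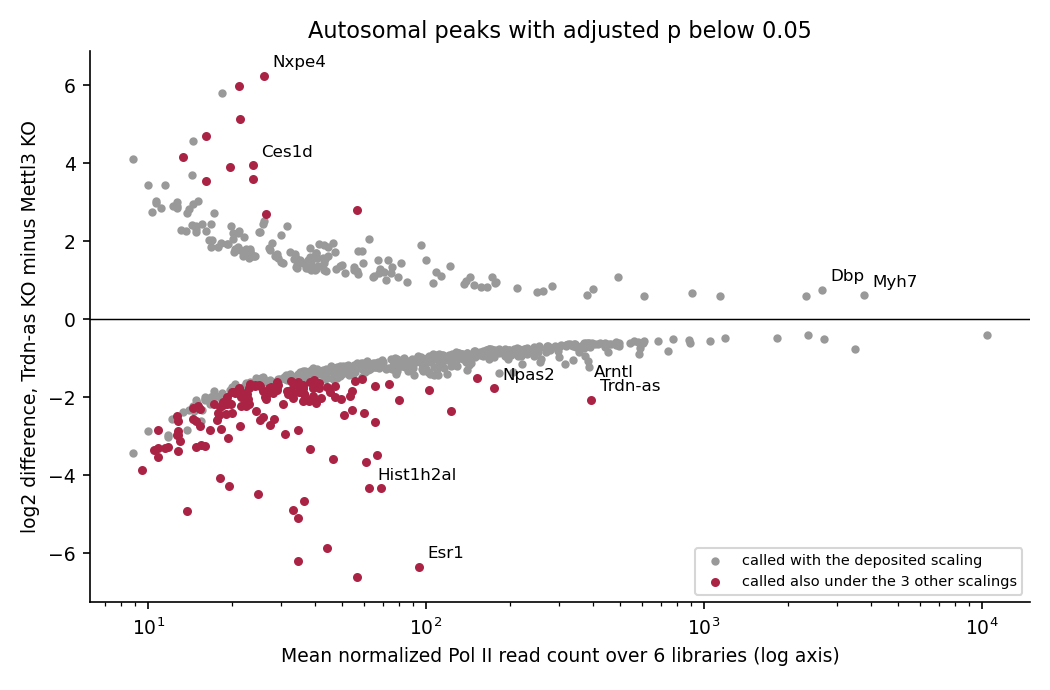
Log2 difference of *Trdn-as* KO minus *Mettl3* KO against the mean normalized read count of 6 Pol II libraries (log axis) for the 765 autosomal peaks with an adjusted p below 0.05. The 163 peaks called under all 3 other scalings are red, and the peaks inside *Esr1*, with differences from -6.62 to -5.09, lie lowest.

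The promoter of *Trdn-as*, the gene with the inserted polyadenylation signal, was among the called peaks. The promoter peak of *Trdn-as* (ENSMUSG00000112707, minus strand), on chromosome 10 from 33129849 to 33132974 in GRCm39, lies inside *Trdn*. It had normalized read counts of 140 and 100 in *Trdn-as* KO, 503 and 491 in *Mettl3* KO and 530 and 595 in WT. Both *Trdn-as* KO libraries lay far below the other 4, which were close to each other. The difference was -2.06 (standard error 0.18, adjusted p = 6.5e-13 from limma). It passed without each of the 4 knockout libraries in turn and under all 3 other scalings, but not without the variance trend (adjusted p = 0.21) or without the filter on low values (adjusted p = 0.30).

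On the side of this promoter towards the start of *Trdn*, 5 more peaks were lower in *Trdn-as* KO, so that 6 of the 12 tested peaks within or near the gene were called, all 6 lower. Downstream along the antisense direction, 4 of these lay at exons 8 to 9, and the fifth, next to the promoter peak (33128773 to 33129674), had 16 and 12 against 38 and 38 and 84 and 66 in WT (difference -1.39, adjusted p = 0.029 from limma). That call was lost with uniquely mapped reads (adjusted p = 0.084 from limma), with the 4 knockout libraries only (0.23), and without *Trdn-as* KO replicate 2 (0.18), *Mettl3* KO replicate 1 (0.36) or *Mettl3* KO replicate 2 (0.55). The peak from 33078294 to 33079617 had 9 and 14 in *Trdn-as* KO, 71 and 80 in *Mettl3* KO and 108 and 112 in WT, a difference of -2.64 (standard error 0.32, adjusted p = 7.9e-08 from limma). This call was lost without *Mettl3* KO replicate 2, with an adjusted p of 0.068 from limma. The neighbouring peak from 33076772 to 33078096 had 9 and 10 against 67 and 48, with 72 and 98 in WT, a difference of -2.46 (standard error 0.35, adjusted p = 4.8e-06 from limma, but 0.11 without *Mettl3* KO replicate 1 and 0.066 without replicate 2). The peak from 33079693 to 33080819 had 13 and 6 against 40 and 38, with 76 and 79 in WT, a difference of -2.01 (standard error 0.38, adjusted p = 0.0010 from limma). It passed without *Trdn-as* KO replicate 1 but not without *Trdn-as* KO replicate 2 (adjusted p = 0.095 from limma), *Mettl3* KO replicate 1 (0.23) or *Mettl3* KO replicate 2 (0.40). In these 3 peaks both *Mettl3* KO libraries lay above both *Trdn-as* KO libraries and below both WT libraries. The remaining peak, from 33074110 to 33074633, did not show this order, with 1 and 2 in *Trdn-as* KO, 15 and 22 in *Mettl3* KO and 15 and 21 in WT (difference -2.97, standard error 0.71, adjusted p = 0.016 from limma), and it too passed only without *Trdn-as* KO replicate 1, with adjusted p-values of 0.086 to 0.57 without each of the other 3 knockout libraries. By contrast, the peak 3.0 kb from the start of *Trdn* (32958918 to 32960187) had 191 and 149 in *Trdn-as* KO against 218 and 190 in *Mettl3* KO, a difference of -0.27 (standard error 0.21, adjusted p = 0.52 from limma).

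**Figure D3:**
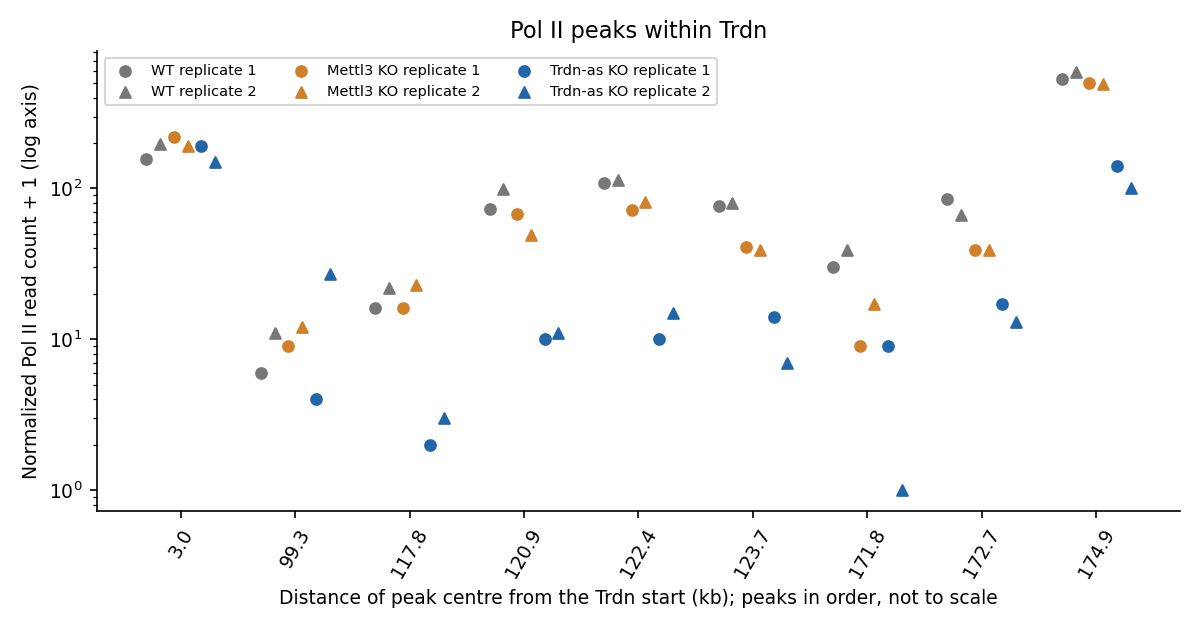
Normalized Pol II read count plus 1 (log axis) of the peaks within *Trdn* with a mean of at least 10, by the distance of the peak centre from the *Trdn* start in kb. *Trdn-as* KO (blue) lies below *Mettl3* KO (orange) from 117.8 kb to 124 kb and at the *Trdn-as* promoter at 175 kb, whereas the 3 genotypes lie together at 3.0 kb.

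Within each library, the exon 8 to 9 sum relative to the peaks at exon 1 does not depend on library scaling. This log2 ratio was -2.63 and -1.81 in *Trdn-as* KO against -0.19 and 0.08 in *Mettl3* KO, and the groups did not overlap. The same ratio for the *Trdn-as* promoter region was -0.25 and -0.50 against 1.28 and 1.51. With 2 libraries per group, the two-sided exact permutation p was 0.33 for both, the smallest that the design allows.

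The genes engineered in *Mettl3* KO hearts are *Mettl3* itself and the sources of the transgene, *Esr1* and *Myh6*. The promoter peak of *Mettl3* (chromosome 14, 52541954 to 52542861) had 203 and 161 in *Trdn-as* KO against 240 and 235 in *Mettl3* KO, and the difference of -0.39 (standard error 0.20) did not pass (adjusted p = 0.30 from limma). A second tested peak inside *Mettl3* (52532801 to 52533746) had 17 and 24 against 22 and 13 (adjusted p = 0.83 from limma). The position of the floxed exons relative to these peaks was not examined, so they give no check of the label. Inside *Esr1*, the estrogen receptor gene whose hormone-binding part is contained in MerCreMer, 5 peaks were nearly empty in *Trdn-as* KO. They lay on chromosome 10 between 4806875 and 4951473 and summed to 6 and 10 in *Trdn-as* KO, 750 and 816 in *Mettl3* KO and 2 and 0 in WT. Their differences ran from -6.62 to -5.09. The highest, from 4806875 to 4807242, had 3 and 2 against 260 and 301 (difference -6.34, standard error 0.69, adjusted p = 1.2e-09 from limma). All 5 reached the minimum for testing only through the *Mettl3* KO libraries, so a difference was built into their being tested. None of the 5 passed without *Mettl3* KO replicate 1 (adjusted p from 0.11 to 0.37 from limma) or replicate 2 (0.31 to 0.58). CTCF libraries showed 1 and 3 in *Trdn-as* KO against 28 and 32 in *Mettl3* KO over the same 5 peaks, and the IgG libraries 20 and 143. The promoter peak of *Esr1* itself, from 4561762 to 4562072, had 13 and 4 against 8 and 8 (adjusted p = 0.96 from limma). The contribution of transgene DNA to these peaks was not tested. The promoter of *Myh6* drives the transgene. At its promoter peak, CTCF libraries had 340 and 322 in *Trdn-as* KO, 455 and 480 in *Mettl3* KO and 299 and 289 in WT. The CTCF difference was -0.50 (standard error 0.06, adjusted p = 1.5e-04 from limma). IgG libraries had 1057, 1354 and 1003 in the same order. A contribution of transgene DNA was not tested here either. Pol II at this peak had 9901 and 7625 in *Trdn-as* KO, 11283 and 11566 in *Mettl3* KO and 10654 and 11527 in WT. The Pol II difference was -0.39 (standard error 0.08, adjusted p = 0.0041 from limma). The *Myh6* call was lost without *Trdn-as* KO replicate 2 (adjusted p = 0.051 from limma), *Mettl3* KO replicate 1 (0.45) or *Mettl3* KO replicate 2 (0.64) and with uniquely mapped reads (0.37), and the difference ran from -0.86 with uniquely mapped reads to -0.15 with cyclic loess.

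Of the lists of cell type markers, that of fibroblasts had the most calls between the knockouts. This and the lists below were chosen with earlier results of these data known. Their shares of called genes are therefore not independent of the data. Fibroblasts build the collagen-rich matrix of the heart, and less Pol II per cell and fewer such cells cannot be told apart in whole ventricles. For each gene the promoter peak with the highest mean was used, and 8 of 12 fibroblast markers were lower in *Trdn-as* KO and 0 higher, against 1.66% and 0.265% of 15827 genes tested. The median difference of the 12 was -0.84, against -0.27 over all genes. At all 12 both *Trdn-as* KO libraries lay below both *Mettl3* KO libraries, which was also the case, or the reverse, at 43.7% of all tested autosomal peaks.

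*Col1a1* and *Col1a2* encode the chains of type I collagen. The *Col1a1* promoter peak had 253 and 165 in *Trdn-as* KO, 373 and 370 in *Mettl3* KO and 163 and 161 in WT (difference -0.86, standard error 0.20, adjusted p = 0.013 from limma). The *Col1a2* peak had 212 and 130, 336 and 307, and 147 and 153 in the same order (difference -0.95, standard error 0.21, adjusted p = 0.0083 from limma). In both genes the *Mettl3* KO libraries were the highest of the 6, and *Trdn-as* KO replicate 2 was near WT.

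*Col3a1*, for type III collagen, had 131 and 92 against 230 and 246 and 78 and 96 in WT, a difference of -1.11. *Fn1*, for the matrix protein fibronectin, had 115 and 61 against 182 and 195 and 113 and 98 in WT, a difference of -1.16. *Fbn1*, for the microfibril protein fibrillin, had 307 and 252 against 461 and 528 and 276 and 303 in WT, a difference of -0.82. The *Mettl3* KO libraries were again the highest at these 3 peaks.

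*Postn*, which encodes a matrix protein of activated fibroblasts, had 36 and 12 against 53 and 70 and 26 and 28 in WT, a difference of -1.50. *Mmp2*, for a gelatin-degrading protease, had 50 and 39 against 103 and 96 and 39 and 51 in WT (-1.15), and *Pdgfra*, a growth factor receptor of fibroblasts, had 178 and 122 against 255 and 258 and 112 and 123 in WT (-0.80). The adjusted p-values of these 6 genes from limma ran from 0.0048 for *Col3a1* to 0.043 for *Pdgfra*. The other markers, *Dcn*, *Lum*, *Tcf21* and *Gsn*, had differences from -0.67 to -0.34 and did not pass.

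Summed over the 12 markers, the promoter peaks held 1975 and 1397 in *Trdn-as* KO, 2821 and 2871 in *Mettl3* KO and 1431 and 1527 in WT, and no marker was at 0 in all knockout libraries. With TMM 8 of 12 passed as lower (2.3% of all genes) and with cyclic loess 8 of 12 (1.71%). Scaled to uniquely mapped reads, 0 of 12 passed (0.183% of all genes) while their median difference was -1.30. Without *Trdn-as* KO replicate 2, 0 of 12 passed (0.221% of all genes) and the median was -0.57.

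When called peaks at most 50000 nt apart were joined, 20 runs of at least 3 peaks were found, 13 lower throughout in *Trdn-as* KO, 4 higher throughout and 3 mixed. The fibroblast markers *Col1a1* and *Col1a2* accounted for 2 of the 20. Beside the *Trdn* run of 6 peaks, the longest were those of *Col1a1* (5 peaks, chromosome 11, 94764548 to 94828869) and *Col1a2* (5 peaks, chromosome 6, 4456772 to 4506803). The *Col1a1* run summed to 417 and 299 in *Trdn-as* KO, 790 and 739 in *Mettl3* KO and 274 and 289 in WT. The *Col1a2* run summed to 444 and 268, 780 and 686, and 341 and 306. A run of 4 peaks lay at *Col4a1*, for a basement membrane collagen, with 87 and 83 against 234 and 227, and here *Trdn-as* KO lay below WT (117 and 138).

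A run of 3 peaks lay at *Foxs1*, a forkhead transcription factor gene, with 239 and 224 in *Trdn-as* KO, 481 and 469 in *Mettl3* KO and 212 and 226 in WT.

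*Olfml2b*, which encodes an extracellular olfactomedin-domain protein, had WT libraries at the level of *Mettl3* KO. Its promoter peak (chromosome 1, 170475002 to 170476402) had 24 and 39 in *Trdn-as* KO, 150 and 173 in *Mettl3* KO and 154 and 200 in WT, a difference of -2.36 (standard error 0.26, adjusted p = 2.3e-09 from limma). CTCF libraries had 10 and 10 in *Trdn-as* KO against 36 and 32 in *Mettl3* KO at this peak, a difference of -1.67 (standard error 0.18, adjusted p = 3.6e-05 from limma).

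With the deposited scaling few markers of other cells passed. Endothelial markers passed in 0 of 11 (median -0.03), macrophage and leukocyte markers in 0 of 15 (-0.33), adipocyte markers in 0 of 7 (0.15) and atrial markers in 0 of 3 (-0.22). Of the 9 smooth muscle and pericyte markers *Pdgfrb*, a receptor also present on fibroblasts, was the only call, with 276 and 218 in *Trdn-as* KO against 410 and 405 in *Mettl3* KO (difference -0.73, adjusted p = 0.026 from limma). Of 9 cardiomyocyte markers *Myh6*, a source of the transgene, was the only call, as lower. Of these 9, 5 were called higher and 1 lower with cyclic loess (2.63% and 1.71% of all genes), 2 and 1 with TMM (1.67% and 2.3%), 2 and 0 without *Trdn-as* KO replicate 2 (0.209% and 0.221%), and 0 and 6 without *Trdn-as* KO replicate 1, where 40.9% of all genes were lower and 0.436% higher. Of the 11 endothelial markers 2 were higher with cyclic loess (2.63% of all genes) and 2 with TMM (1.67%). With the deposited scaling, the summed cardiomyocyte markers, *Myh6* among them, were 31013 and 23702 in *Trdn-as* KO against 30870 and 31284 in *Mettl3* KO. Endothelial markers summed to 3376 and 2621 against 3020 and 2874, macrophage markers to 609 and 430 against 689 and 649, and smooth muscle and pericyte markers to 733 and 494 against 836 and 839. The part of these cell types in the results was not tested.

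**Figure D4:**
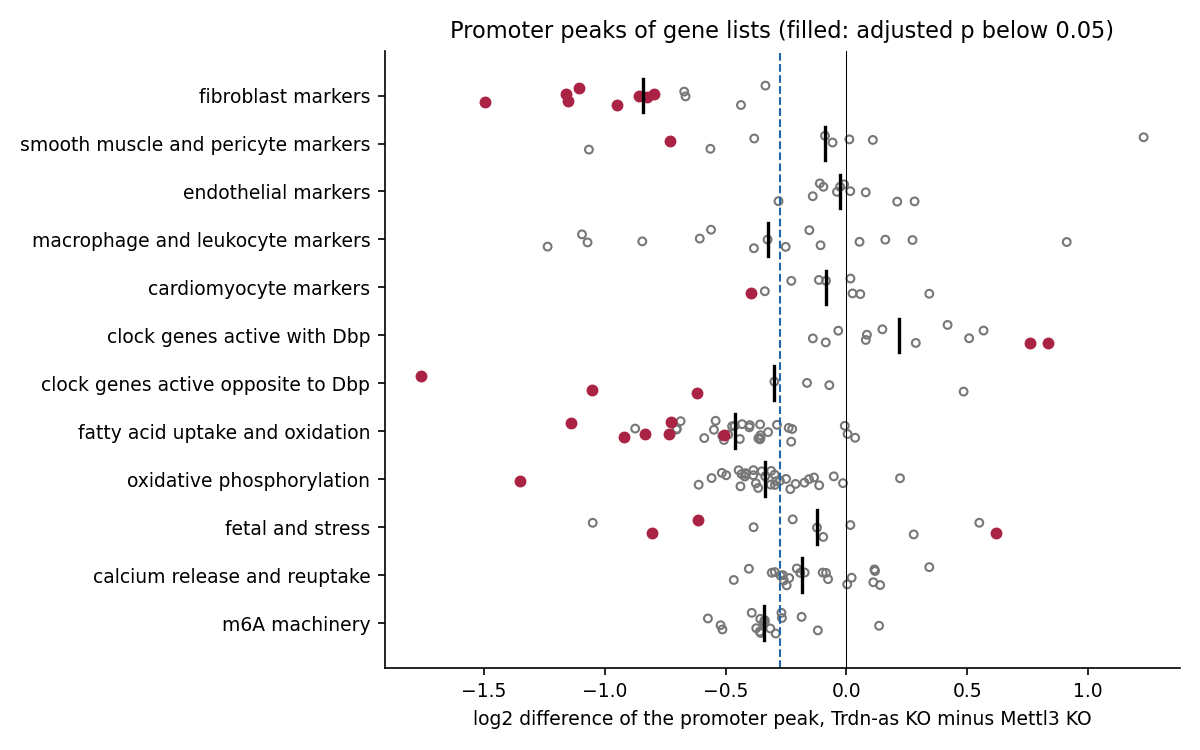
Log2 difference of the promoter peak, *Trdn-as* KO minus *Mettl3* KO, for the genes of 12 lists; each circle is 1 gene, filled where the adjusted p was below 0.05, the black bars are list medians and the dashed line is the median of 15827 genes (-0.27). Fibroblast markers (median -0.84) lie to the left of this line with all 12 genes.

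Genes of the daily clock differed in opposite directions. In the clock, the activators BMAL1 (gene *Arntl*), CLOCK and NPAS2 drive genes such as *Dbp*, whose products and those of the REV-ERB genes feed back on the activators, so that *Arntl* and *Dbp* peak at different times of the day. Of the 7 genes active opposite to *Dbp*, 3 were lower in *Trdn-as* KO and 0 higher, against 1.66% and 0.265% of all genes. With cyclic loess 2 were lower and 1 higher (1.71% and 2.63% of all genes), with TMM 3 and 1 (2.3% and 1.67%), and with uniquely mapped reads 1 and 0 (0.183% and 0.0253%). The gene called higher with cyclic loess was *Cry1*, a repressor of the clock, with 335 and 246 in *Trdn-as* KO, 197 and 213 in *Mettl3* KO and 374 and 345 in WT (difference 0.48, adjusted p = 0.16 from limma with the deposited scaling). *Npas2* had 100 and 102 in *Trdn-as* KO, 340 and 349 in *Mettl3* KO and 64 and 100 in WT (difference -1.76, standard error 0.23, adjusted p = 4.3e-07 from limma). *Arntl* had 296 and 238, 540 and 563, and 204 and 185 (difference -1.05, standard error 0.18, adjusted p = 2.2e-04 from limma). *Clock* had 329 and 295, 453 and 507, and 325 and 303 (difference -0.62, standard error 0.17, adjusted p = 0.044 from limma), and with cyclic loess its adjusted p was 0.058. At all 3 promoters *Mettl3* KO was the highest group and at *Arntl* both *Trdn-as* KO libraries lay above both WT libraries.

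Of the 12 genes active with *Dbp*, 2 were higher in *Trdn-as* KO and 0 lower, against 0.265% and 1.66% of all genes. *Dbp* itself, a transcription factor gene under direct clock control, had 3267 and 2482 in *Trdn-as* KO, 1710 and 1650 in *Mettl3* KO and 3291 and 3501 in WT (difference 0.76, standard error 0.11, adjusted p = 4.8e-06 from limma). With uniquely mapped reads the difference at *Dbp* was 0.30 (adjusted p = 0.72 from limma), and the call was also lost without *Mettl3* KO replicate 1 (0.22) or replicate 2 (0.44). *Hlf*, a relative of *Dbp*, had 205 and 143, 88 and 104, and 226 and 228 (difference 0.83, standard error 0.22, adjusted p = 0.037 from limma). Among those that did not pass, *Per2* had a difference of 0.57, *Ciart* of 0.51, *Per3* of 0.42 and *Per1* of 0.08. The median of the 12 genes was 0.22 with the deposited scaling and -0.24 with uniquely mapped reads, where 0 of them passed (0.0253% of all genes were higher). As higher, 9 were called with TMM (1.67% of all genes) and 10 with cyclic loess (2.63%), and 4 without *Trdn-as* KO replicate 2 (0.209%). *Usp2*, a deubiquitinase gene under clock control, had a run of 3 higher peaks that summed to 182 and 175 in *Trdn-as* KO, 92 and 59 in *Mettl3* KO and 205 and 225 in WT. The labels give no time of day for the hearts, so clock phase and genotype cannot be told apart.

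The promoters of 3 genes that were lower in *Trdn-as* KO are shown with a short motif, since these promoter peaks were called and the genes belong to the clock, matrix and glucocorticoid groups. The sequences are RefSeq promoters in GRCm38.p6, from 250 bases before to 50 bases after the start, on chromosome 7 from 113207261 to 113207560 (*Arntl*, plus strand), chromosome 6 from 4505368 to 4505667 (*Col1a2*, plus strand) and chromosome 8 from 94172368 to 94172667 (*Mt2*, plus strand). Capitals mark GTAGGTCA, a binding motif of ROR and REV-ERB receptors, in *Arntl*, CCAAT, the box bound by NF-Y, in *Col1a2*, and TGCGCNC, a metal response element, in *Mt2*, each searched on both strands.
*Arntl* promoter: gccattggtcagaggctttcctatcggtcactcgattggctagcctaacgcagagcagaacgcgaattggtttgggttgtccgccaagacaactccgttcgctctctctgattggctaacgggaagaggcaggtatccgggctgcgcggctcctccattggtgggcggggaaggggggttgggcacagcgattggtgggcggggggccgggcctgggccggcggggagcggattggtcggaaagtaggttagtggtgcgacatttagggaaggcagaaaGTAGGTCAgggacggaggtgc
*Col1a2* promoter: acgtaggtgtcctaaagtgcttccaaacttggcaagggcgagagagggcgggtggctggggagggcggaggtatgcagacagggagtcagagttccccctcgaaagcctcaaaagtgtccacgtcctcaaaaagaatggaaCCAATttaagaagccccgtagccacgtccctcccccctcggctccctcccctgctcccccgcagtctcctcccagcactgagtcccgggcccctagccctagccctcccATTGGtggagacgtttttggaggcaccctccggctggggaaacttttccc
*Mt2* promoter: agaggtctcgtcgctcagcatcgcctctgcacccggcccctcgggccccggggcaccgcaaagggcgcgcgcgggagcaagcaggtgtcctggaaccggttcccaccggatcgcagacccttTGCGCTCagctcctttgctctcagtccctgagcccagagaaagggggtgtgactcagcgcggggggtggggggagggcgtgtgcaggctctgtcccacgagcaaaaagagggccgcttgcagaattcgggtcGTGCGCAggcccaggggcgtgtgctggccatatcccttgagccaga
The motif GTAGGTCA, 30 bases into *Arntl*, was in 0.621% of all 32851 RefSeq promoters of this length, and of the 6 genes active opposite to *Dbp* with an entry it was found in *Arntl* and *Nfil3*. CCAAT occurred in 37.4% of promoters and TGCGCNC in 15.4%. A match is a description of the letters and not a measured binding site.

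Metabolic genes of the list for fatty acid uptake and oxidation, the main fuel route of the adult heart, were lower in *Trdn-as* KO in 6 of 35 cases and higher in 0, against 1.66% and 0.265% of all genes. The median difference of the list was -0.46, against -0.27 over all genes, and with cyclic loess -0.18 against -0.03. With cyclic loess 6 passed as lower and 2 as higher (1.71% and 2.63% of all genes), and with uniquely mapped reads 0 passed (0.183% lower). *Pdk4*, a kinase that restrains glucose oxidation, had 262 and 177 in *Trdn-as* KO, 479 and 472 in *Mettl3* KO and 263 and 251 in WT (difference -1.14, standard error 0.19, adjusted p = 8.0e-05 from limma). *Angptl4*, an inhibitor of lipoprotein lipase, had 235 and 177, 381 and 349, and 238 and 236 (difference -0.84, adjusted p = 0.011 from limma). *Fabp3*, the fatty acid binding protein of heart, had 2550 and 2062, 3281 and 3230, and 2463 and 2556 (difference -0.51, adjusted p = 0.0042 from limma). In these genes *Mettl3* KO was the highest group, *Trdn-as* KO replicate 1 was within 100 of WT, and *Trdn-as* KO replicate 2 lay below both WT libraries.

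*Slc25a20*, the mitochondrial carrier of acylcarnitine, *Acadvl*, an acyl-CoA dehydrogenase, and *Acot2*, a mitochondrial thioesterase, were the other 3 calls, with differences of -0.92, -0.72 and -0.73. Without *Trdn-as* KO replicate 2, the median difference of the list was -0.27, against -0.11 over all genes. *Cpt1b*, *Hadha* and *Acadm* had differences of -0.49, -0.43 and -0.36 and did not pass. In the oxidative phosphorylation list 1 of 33 genes was called lower (1.66% of all genes), and with TMM 2 (2.3%). The median difference over 33 genes was -0.34 with the deposited scaling and -0.04 with cyclic loess, close to the -0.27 and -0.03 over all genes.

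Sarcomere and stress genes were called singly. *Myh7*, the slow myosin heavy chain, had 4451 and 3581 in *Trdn-as* KO, 2586 and 2617 in *Mettl3* KO and 4531 and 4807 in WT, a difference of 0.62 (standard error 0.10, adjusted p = 5.3e-05 from limma). With uniquely mapped reads the difference was 0.16 (adjusted p = 0.86 from limma). The *Myh7* call was also lost with the 4 knockout libraries only (adjusted p = 0.090 from limma) and without *Mettl3* KO replicate 1 (0.30) or replicate 2 (0.50). *Ankrd1*, for a stress-responsive ankyrin protein, had 607 and 419, 879 and 882, and 765 and 898 (difference -0.80, adjusted p = 8.4e-04 from limma). *Ccn2*, a matricellular growth factor gene, had 384 and 336, 564 and 536, and 411 and 419 (difference -0.61, adjusted p = 0.035 from limma). The natriuretic peptide gene *Nppb* had 941 and 739 against 1089 and 1088 and did not pass (difference -0.38, adjusted p = 0.13 from limma). Thus 3 of 11 genes of the fetal and stress list and 2 of 27 of the sarcomere list passed, against 1.92% of all genes. In the sarcomere list 1 was higher and 1 lower with the deposited scaling, 10 and 1 with cyclic loess (2.63% and 1.71% of all genes), 4 and 1 with TMM (1.67% and 2.3%), 0 and 0 with uniquely mapped reads, 2 and 0 without *Trdn-as* KO replicate 2 (0.209% and 0.221%), and 1 and 17 without *Trdn-as* KO replicate 1 (0.436% and 40.9%).

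Among glucocorticoid targets 3 of 13 were lower, *Pdk4*, *Zbtb16* (-0.62) and the metallothionein gene *Mt2* (-1.30), against 1.66% of all genes. With cyclic loess 1 of the 13 was higher and 2 lower (2.63% and 1.71% of all genes), and with TMM 1 and 4 (1.67% and 2.3%). With uniquely mapped reads 0 of the 13 passed (0.183% of all genes were lower). Without *Trdn-as* KO replicate 2 the median difference of the list was -0.22, against -0.11 over all genes. *Mt2* had 104 and 67 in *Trdn-as* KO, 217 and 198 in *Mettl3* KO and 121 and 134 in WT. Of 22 immediate early genes *Myc* passed (-0.73), and of 22 interferon-stimulated genes *Usp18* (-0.86) and *Gbp2* (-0.76), against 1.66% of all genes. With cyclic loess 5 immediate early genes were higher and 1 lower (2.63% and 1.71% of all genes), and with TMM 2 and 1 (1.67% and 2.3%). Of the interferon-stimulated genes 0 were higher and 2 lower with each of these scalings. With uniquely mapped reads 0 genes of either list passed (0.183% of all genes were lower). In 11 of the 21 gene lists no gene passed with the deposited scaling. These included 22 genes of calcium release and reuptake, among them the partners of triadin, 19 of cleavage and polyadenylation, 18 of the m6A machinery, 21 of Pol II pausing and elongation, 17 of ion channels and 14 of p53 targets. With cyclic loess 4 of the calcium genes and 3 of the ion channel genes were higher (2.63% of all genes), and with TMM 3 and 2 (1.67%). Without *Trdn-as* KO replicate 1, where 40.9% of all genes were lower, 9 of 22 calcium genes and 7 of 17 ion channel genes were lower, as were 11 of 19 genes of cleavage and polyadenylation, 14 of 18 of the m6A machinery, 16 of 21 of pausing and elongation and 10 of 14 p53 targets. Without *Trdn-as* KO replicate 2, 2 of the calcium genes were higher (0.209% of all genes). Over all 21 lists 22 of 355 genes tested passed (6.2%, against 1.92% of all genes in either direction), 3 of them higher and 19 lower in *Trdn-as* KO. The 22 include *Trdn-as*, the edited gene. Since the lists were chosen with earlier results known, the excess over all genes is not independent of these data. The number of calls rose to 63 with cyclic loess and fell to 2 with uniquely mapped reads. Without *Mettl3* KO replicate 1 or replicate 2, *Trdn-as* was the only list gene that passed.

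Some peaks were nearly empty in 1 knockout. Of the 765, 94 had a mean under 10 in *Trdn-as* KO and of at least 20 in *Mettl3* KO, and 54 the reverse. The WT mean was at least 20 at 31 of the 94 and 25 of the 54. Of the 94, 17 reached the minimum for testing only through the *Mettl3* KO libraries, and of the 54, 14 only through the *Trdn-as* KO libraries. Beside *Esr1*, the peak on chromosome 13 from 108429490 to 108430324, with no annotated gene, had 7 and 4 in *Trdn-as* KO, 120 and 134 in *Mettl3* KO and 75 and 72 in WT (difference -4.34, standard error 0.35, adjusted p = 1.8e-14 from limma). CTCF libraries had 2 and 2 against 11 and 15 there, a difference of -2.21 (standard error 0.30, adjusted p = 6.2e-04 from limma). It belonged to a run of 4 lower peaks that reached into *Depdc1b*, and an *Elovl7* promoter peak nearby had 6 and 10 against 50 and 51. The peak at the pseudogene *Hist1h2al* (chromosome 13, 51356753 to 51357205) had 2 and 6, 79 and 104, and 102 and 81 (difference -4.32, adjusted p = 6.5e-13 from limma). The pseudogene peak *Gm11942* (chromosome 4, 32964731 to 32964932) had 0 and 2, 50 and 50, and 52 and 46 (difference -4.88, adjusted p = 6.3e-10 from limma). *Gm16589* (chromosome 8, 4137246 to 4137426) had 0 and 2, 36 and 40, and 41 and 30, and a peak inside *Lmo7* (chromosome 14, 102104418 to 102105503) had 7 and 12, 102 and 125, and 54 and 100. At these 4 peaks WT and *Mettl3* KO overlapped or nearly so, and *Trdn-as* KO stood alone, a grouping that the Y chromosome values share.

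Other lower peaks with no annotated gene lay on chromosome 2 from 75469793 to 75470156, with 1 and 2 against 57 and 66, on chromosome 4 from 154894691 to 154895232, with 5 and 8 against 91 and 82, and on chromosome 18 from 65651831 to 65652679, with 7 and 6 against 114 and 77. The first of them also had less CTCF, 0 and 0 against 10 and 7 (difference -3.23, standard error 0.45, adjusted p = 6.7e-04 from limma).

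In the other direction, a peak inside *Nxpe4* (chromosome 9, 48225440 to 48225976) had 89 and 63 in *Trdn-as* KO, 0 and 0 in *Mettl3* KO and 4 and 1 in WT. CTCF libraries had 17 and 15 in *Trdn-as* KO, 1 and 1 in *Mettl3* KO and 1 and 2 in WT. The promoter peak of *Lefty1*, a nodal antagonist gene, had 49 and 53, 2 and 3, and 7 and 4 (a difference of 3.91), with CTCF values of 15 and 13 against 3 and 3. The *Nxpe4* and *Lefty1* peaks reached the minimum for testing only through the *Trdn-as* KO libraries, for Pol II and for CTCF. A peak inside *Gm36210* (chromosome 7, 4902832 to 4903676) had 150 and 112, 22 and 14, and 19 and 22 (difference 2.81, standard error 0.35, adjusted p = 1.6e-07 from limma). These peaks were high in *Trdn-as* KO alone, which was also the only group without Y chromosome signal.

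*Mettl3* KO was the lowest group, with WT above *Trdn-as* KO, at *Ces1d*, for a carboxylesterase that hydrolyses lipid esters. Its peak on chromosome 8 from 93922104 to 93922825 had 30 and 22 in *Trdn-as* KO, 2 and 0 in *Mettl3* KO and 48 and 41 in WT (difference 3.95, standard error 0.60, adjusted p = 1.6e-05 from limma). The run of 3 *Ces1d* peaks summed to 186 and 91, 26 and 24, and 221 and 244. The same order was present at *Gm14097*, with 574 and 428, 241 and 222, and 701 and 778 (difference 1.10, standard error 0.17, adjusted p = 1.6e-05 from limma). *Mettl3* KO was also the lowest, with WT and *Trdn-as* KO overlapping or close, at peaks inside *Tnfaip8* (104 and 63, 25 and 14, and 97 and 72) and *Chd6* (45 and 39, 10 and 3, and 27 and 36). A peak with no annotated gene on chromosome 10 from 69057844 to 69058488 had 40 and 35, 8 and 5, and 41 and 60. A peak inside *Pknox2* had 81 and 75, 18 and 21, and 45 and 37, with WT between the knockouts. With uniquely mapped reads the difference at *Gm14097* was 0.64 (adjusted p = 0.46 from limma), and the peaks inside *Tnfaip8* (0.14) and *Pknox2* (0.19) and the one on chromosome 10 (0.065) did not pass either. The *Gm14097* call was also lost without *Mettl3* KO replicate 1 (0.13) or replicate 2 (0.39).

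A peak inside *Rabepk* (chromosome 2, 34667573 to 34669557) had 197 and 159 in *Trdn-as* KO, 67 and 56 in *Mettl3* KO and 60 and 60 in WT (difference 1.52, standard error 0.26, adjusted p = 2.5e-04 from limma, but 0.37 with uniquely mapped reads, 0.11 without *Mettl3* KO replicate 1 and 0.37 without replicate 2). Together with 2 promoter peaks of *Hspa5*, the neighbouring chaperone gene, both at lower coordinates, it formed a run that summed to 333 and 216, 94 and 79, and 107 and 96.

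Over the 94 peaks nearly empty in *Trdn-as* KO, CTCF was tested at 39 and lower at 9. Over the 54 nearly empty in *Mettl3* KO, CTCF was tested at 26 and higher in *Trdn-as* KO at 7. These 16 calls had the direction of Pol II, and 1.2% of all peaks were called for CTCF in either direction. For 6 of the 7 higher calls this direction was set by the filter, since CTCF reached the minimum for testing only through the *Trdn-as* KO libraries, which was the case for 0 of the 9 lower calls in the *Mettl3* KO libraries. Of the 148 peaks, 67 of the 94 and 9 of the 54 passed under all 3 other scalings.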

How the data were processed

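Pol II, CTCF and IgG ChIP-seq libraries of mouse ventricles were analysed from a table of union peaks, with samples grouped by their labels. The authors trimmed reads with Trimmomatic 0.39, aligned them to mm39 with STAR 2.7.11b, deduplicated with Picard 3.1.1, called peaks with MACS, counted reads with featureCounts and normalized with DESeq2 1.36.0. What was deposited is that normalized signal per peak, as whole numbers after rounding. Gene names came from the file, and those of identifiers without a symbol from GENCODE M21 (5859 of 6928 matched). The value of 1 read was estimated from the spacing of low values and gave the reads in peaks.

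As these values are normalized, no count test was used. Instead limma 3.58.1 (R 4.3.3) was fitted with a variance trend to log2(value + 1) over 6 Pol II libraries and 3 genotypes, for peaks that reached 10 in 2 or more libraries, and in the same way for CTCF. The fit was tested on simulated data. Other steps used Python 3.11.15, pandas 2.3.3, numpy 2.4.6 and matplotlib 3.10.9. Named were the peaks of *Trdn*, *Mettl3*, *Esr1* and the *Myh6* promoter, the 12 genes or peaks with the smallest adjusted p in each direction whose libraries did not overlap, and the called genes of the lists. Of the called list genes, 1 is not reported here. Members and lists were chosen with earlier results of these data known. Input libraries were not analysed here, and 2 libraries per genotype limit the precision.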

Additional observations from a re-analysis of the deposited data

Results flagged for a closer look

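The IgG libraries, which enter no test, carried signal at the 5 called peaks inside *Esr1*, which summed to 143 in *Mettl3* KO, 39 in WT and 20 in *Trdn-as* KO, with 1 library per genotype. What gave this signal was not tested.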

How the results depend on the processing

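None of the 765 called peaks changed direction under any alternative, but the number of calls did change. For autosomal peaks (765) and promoter peaks (394) it was 108 and 47 with the 4 knockout libraries only, 8 and 5 without the variance trend, 212 and 63 when scaled to uniquely mapped reads, 1401 and 825 with TMM, 1538 and 898 with cyclic loess, 1250 and 697 with a pseudocount of 8, 1379 and 897 with a stricter filter (at least 20 in at least 4 libraries), 183 and 92 at an adjusted p of 0.01 and 0 and 0 without the filter, where 11314 peaks had an unadjusted p below 0.05 in limma. For genes of the 21 lists (22) and fibroblast markers lower in *Trdn-as* KO (8) it was 6 and 0 with the knockout libraries only, 0 and 0 without the variance trend, 2 and 0 with uniquely mapped reads, 0 and 0 without the filter and 11 and 4 at an adjusted p of 0.01. For the list genes it was also 49 with TMM, 63 with cyclic loess and 35 with the stricter filter. The causes were not tested. Leaving out 1 library gave 9 to 9357 peaks, 3 to 7144 promoter peaks, 1 to 218 list genes and 0 to 11 fibroblast markers, the highest number each without *Trdn-as* KO replicate 1. These fits assume that the lone library of a genotype varies like the other groups.

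Neither the *Trdn-as* promoter peak (difference -2.06) nor the exon 8 to 9 peak (-2.64) passed without the variance trend or without the filter, settings that leave the difference itself unaltered by construction. Without 1 library, the exon 8 to 9 difference ran from -2.93 to -2.35. The *Esr1* promoter peak, which was not called (difference -0.11), had the opposite sign with TMM (0.061) and ran from -0.85 to 0.64 when 1 library was left out.

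Deviations of same-numbered libraries did not go together (correlation -0.01 between the knockouts), which cannot show whether such libraries were prepared together. With a replicate block, 920 peaks, 451 promoter peaks, 20 list genes and 8 fibroblast markers passed. The planned count test on recovered reads was not run. In the Pol II libraries 1 read was worth an estimated 0.94 to 2.04, and after rounding the values are not exact multiples of it.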
